A study of Rattus norvegicus with 6 samples.

Results

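The mRNA levels of 10 genes of fibroblast growth factor (FGF) signalling were examined in cultured cortical neural progenitors of the rat. The genes were chosen by name, with earlier results of these data known but under a rule that uses no measured value, and are the ligands *Fgf1* and *Fgf2*, the receptors *Fgfr1*, *Fgfr2* and *Fgfr3*, the feedback inhibitors *Spry1*, *Spry2* and *Dusp6*, and the ETS transcription factors *Etv4* and *Etv5*. All 10 were found among the 17337 gene names of the RNA-seq tables. The cells came from cortices of Sprague Dawley embryos at day 14 (E14), were grown untreated, and were collected after a second passage. The medium held basic FGF (bFGF, the protein that *Fgf2* encodes) at 20 ng/ml and epidermal growth factor (EGF) at 20 ng/ml. Every culture received both factors, so that no level without added FGF was measured. RNA-seq of polyA-selected RNA was made for 2 biological replicates, A and B, with 2 libraries each, which were taken as technical libraries of one replicate. The file of B2 is named after another run than those of A1, A2 and B1, and whether B1 and B2 came from the same RNA was not tested, so that each mean of B rests on that reading of the titles. Where a gene is given with 4 values, these are for libraries A1 and A2 of replicate A and then B1 and B2 of replicate B, in FPKM (fragments per kilobase of transcript and per unit of library depth).

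FGF ligands bind receptor tyrosine kinases at the cell surface, which pass the signal on through adaptor proteins to RAS and the RAF, MEK and ERK kinases. The pathway induces its own inhibitors: Sprouty proteins (from the *Spry* genes) restrain signalling above or at RAF, and DUSP6 is a phosphatase that inactivates ERK in the cytoplasm. The transcription factors ETV4 and ETV5 are likewise induced by FGF signalling and are widely used as its readout. In the developing cortex FGF signalling supports progenitor proliferation and patterns the forebrain, and FGF2, like EGF, is a mitogen for cultured neural progenitors.

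**Figure D1:**
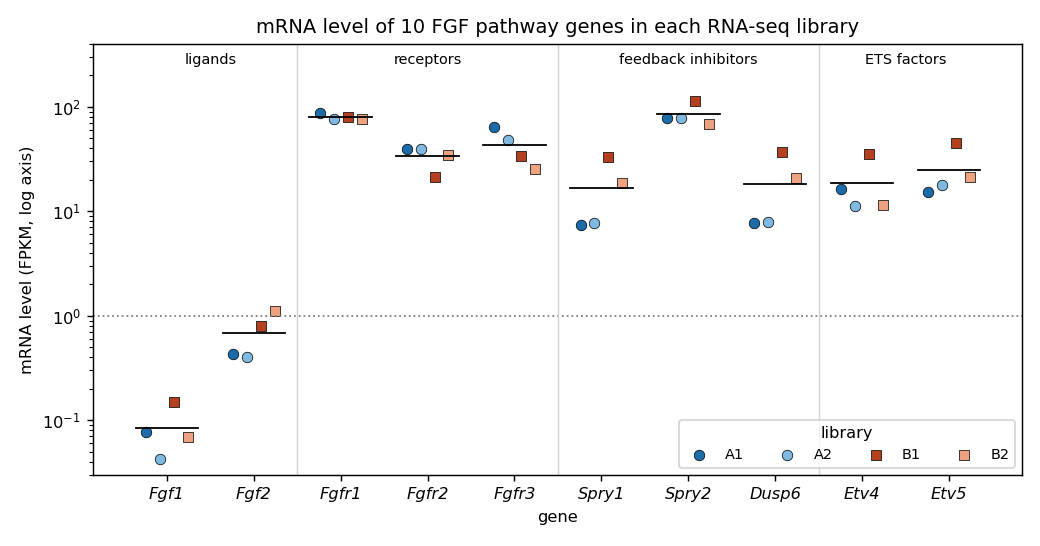
mRNA level in FPKM (log axis) of the 10 genes in each library. Circles are libraries of replicate A, squares are libraries of replicate B, the black line is the mean of both replicates and the dotted line marks 1 FPKM. *Spry1*, *Dusp6* and *Etv5* were lowest in both libraries of A and highest in B1, whereas the 4 values of *Fgfr1* lay close together.

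The promoters of *Spry1*, *Dusp6* and *Etv5* are shown because these genes had the same order of libraries, with B1 highest, B2 next and both libraries of A lowest. The sequences are the 250 bases before the RefSeq gene start in the GRCr8 build, which is a later build than the rn6 used for the expression tables, and they are read 5′ to 3′ on the gene's strand. Capitals mark the letters GGAA, the core of sites bound by ETS factors, and TTCC, the same core on the other strand.
*Spry1*, chr2:122485097-122485346, plus strand: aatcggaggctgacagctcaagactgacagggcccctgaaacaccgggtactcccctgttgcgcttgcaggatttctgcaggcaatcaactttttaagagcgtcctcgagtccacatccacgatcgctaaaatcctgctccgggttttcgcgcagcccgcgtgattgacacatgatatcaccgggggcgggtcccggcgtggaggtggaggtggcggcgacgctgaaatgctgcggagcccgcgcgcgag
*Dusp6*, chr7:35979354-35979603, plus strand: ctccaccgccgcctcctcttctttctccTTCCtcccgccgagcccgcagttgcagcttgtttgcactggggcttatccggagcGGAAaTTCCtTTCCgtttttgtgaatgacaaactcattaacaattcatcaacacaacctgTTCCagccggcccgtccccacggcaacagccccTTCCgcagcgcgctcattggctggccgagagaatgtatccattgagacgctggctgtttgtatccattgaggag
*Etv5*, chr11:92113013-92113262, plus strand: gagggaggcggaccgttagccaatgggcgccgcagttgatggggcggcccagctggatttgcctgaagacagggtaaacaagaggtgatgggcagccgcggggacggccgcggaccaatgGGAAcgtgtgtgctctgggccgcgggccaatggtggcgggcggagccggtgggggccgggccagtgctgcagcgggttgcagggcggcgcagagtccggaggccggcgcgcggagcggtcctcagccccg

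On either strand, the core GGAA occurred 6 times in the *Dusp6* sequence, 1 time in that of *Etv5* and 0 times in that of *Spry1*. Among the other members it occurred 6 times for *Fgf1*, 4 times for *Fgf2*, 2 times for *Fgfr2*, 1 time for *Fgfr3*, and 4 and 2 times for the 2 promoters of *Spry2*. Of all 33469 RefSeq promoters of the same length, 93.2% held at least 1 core and 9.27% held 6 or more. The longer ETS sequence CCGGAAG, which contains the core, and the AP-1 sequence TGANTCA were in none of the 3 promoters, against 7.27% and 6.34% of all promoters. The GC box GGGCGG occurred 1 time for *Spry1*, 3 times for *Etv5* and 0 times for *Dusp6*, and 30.5% of all promoters held at least 1. TATAAA was in none of the 3, against 12.9% of all. The GC content was 60.8% for *Spry1*, 55.6% for *Dusp6* and 72.4% for *Etv5*, with a median of 51.2% over all promoters. The same table held promoters for 8 of the 10 genes and none for *Fgfr1* and *Etv4*. A match of letters is a description of this window and does not show binding. The paper moved many rn6 RefSeq starts by Start-seq. Whether the windows here lie at the starts used in these cells was not tested.

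The depth of the libraries was read from the coverage per FPKM, which grows with the amount of aligned sequence. It was 22.7 to 24.4 in A1, A2 and B1 and 6.83 in B2, so that B2 had 28.1% of the depth of B1. The cell type label was compared with marker genes. Each library listed all 17337 gene names, so that being listed says nothing about the label. The means of the 8 progenitor markers ran from 2.75 FPKM for *Prom1* to 11840.5 FPKM for *Fabp7*. *Sox2* was at 356 to 592 FPKM and *Vim* at 2652 to 4458 FPKM. Markers of mesenchymal and meningeal cells were present too. Their 8 genes summed to 660, 641, 2482 and 2995 FPKM, and all 8 were higher in both libraries of B than in both of A. The 6 neuronal markers summed to 136 to 177 FPKM and the 5 astrocyte markers to 785 to 1182 FPKM. The 4 microglial markers summed to 0.303 to 1.34 FPKM and the 4 endothelial markers to 0.620 to 2.22 FPKM. In a culture of several cell types, a different number of cells of one type and a different amount of RNA per cell cannot be told apart.

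The receptors were among the most abundant of the 10 mRNAs. *Fgfr1*, *Fgfr2* and *Fgfr3* encode the receptor tyrosine kinases that bind FGF ligands together with heparan sulfate. *Fgfr1* is at 71266278 to 71306299 of chromosome 16 in rn6 (minus strand). It had 88.1, 77.2, 79.7 and 76.4 FPKM, a mean of 80.3 ± 3.25 FPKM (SD, n = 2 biological replicates). The libraries of A and B overlapped, and only 7.79% of all gene names had a higher mean.

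*Fgfr3* is at 82273070 to 82287108 of chromosome 14 (minus strand). Its level was 63.7, 47.6, 34.2 and 25.7 FPKM, with a mean of 42.8 ± 18.2 FPKM (SD, n = 2). Both libraries of A were above both of B, and the mean of A was 1.86 times that of B. *Fgfr2* is at 200590951 to 200696928 of chromosome 1 (minus strand). It had 39.7, 39.8, 21.3 and 34.9 FPKM, a mean of 33.9 ± 8.25 FPKM (SD, n = 2). Both libraries of B were below both of A, B2 by much less than B1. For *Fgfr2* the coverage per FPKM was 0.753 to 0.779 of the median of each library, whereas for the other 9 genes it was this median to 3 decimals.

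Of the FPKM summed over the 4 receptor genes, *Fgfr1* made up 46.3% for A and 57.2% for B, on average 51.8% ± 7.68 (SD, n = 2). *Fgfr3* held 31.2% in A and 21.9% in B, and *Fgfr2* 22.3% and 20.6%. *Fgfr4*, the remaining receptor kinase, was at 0.234 to 0.394 FPKM and held 0.154% in A and 0.266% in B. The summed level was 192, 165, 136 and 137 FPKM. *Fgfr1* was the most abundant receptor in each of the 4 libraries. The order of *Fgfr2* and *Fgfr3* was not the same in all libraries, with the ratio of *Fgfr2* to *Fgfr3* at 0.623, 0.836, 0.622 and 1.36.

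**Figure D2:**
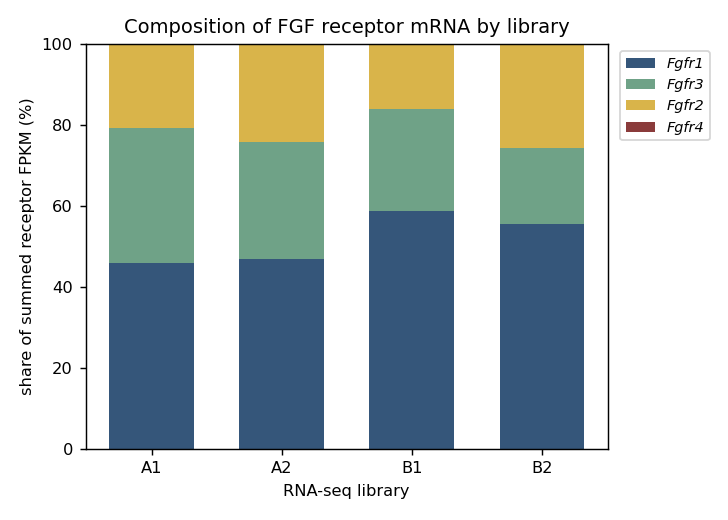
Share of the FPKM summed over *Fgfr1*, *Fgfr2*, *Fgfr3* and *Fgfr4* in each RNA-seq library, in percent, drawn from 0. *Fgfr1* was the largest part of each bar, at 45.9% and 46.8% in A1 and A2 and at 58.8% and 55.6% in B1 and B2, and the share of *Fgfr4* is too small to see.

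The ligand genes were at the low end. *Fgf2*, which encodes the same factor that was added to the medium, is at 124081072 to 124134133 of chromosome 2 (plus strand). It had 0.427, 0.400, 0.790 and 1.12 FPKM, with a mean of 0.685 ± 0.383 FPKM (SD, n = 2). Both libraries of B were above both of A, at coverages between 7.66 and 19.2. *Nudt6*, the gene that faces *Fgf2* tail to tail, ends 171 bp from it on the minus strand and was at 6.83 to 8.48 FPKM, 11.2 times the mean of *Fgf2*. It was chosen after its values were seen. Whether the authors' counting used strand is not given in the sources used here.

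*Fgf1* encodes acidic FGF, a ligand of all FGF receptors. It is at 32336102 to 32357074 of chromosome 18 (plus strand), and it is entirely within the span listed for *Nr3c1*, the glucocorticoid receptor gene, on the minus strand. The GRCr8 promoter of *Fgf1* is on the minus strand instead, a conflict that was not resolved here. *Fgf1* had 0.0765, 0.0429, 0.150 and 0.0694 FPKM, a mean of 0.0847 ± 0.0353 FPKM (SD, n = 2). The libraries overlapped, and the coverage was between 0.474 and 3.65, so that no difference was detectable at this depth. *Nr3c1* was at 11.5 to 12.9 FPKM.

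The feedback inhibitors differed in level. *Spry2* is at 90172967 to 90175802 of chromosome 15 (minus strand), and was the highest of the 10 genes by mean. It had 77.7, 78.8, 114 and 68.7 FPKM, with a mean of 84.8 ± 9.29 FPKM (SD, n = 2). The libraries of B lay on both sides of those of A.

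*Spry1* is at 124400689 to 124405331 of chromosome 2 (plus strand), and its start is 320 kb from that of *Fgf2*. It had 7.41, 7.70, 33.1 and 18.6 FPKM, a mean of 16.7 ± 12.9 FPKM (SD, n = 2). Both libraries of B were above both of A, and the mean of B was 3.42 times that of A. *Dusp6* is at 41475163 to 41479393 of chromosome 7 (plus strand). It had 7.75, 7.97, 36.6 and 20.6 FPKM, a mean of 18.2 ± 14.7 FPKM (SD, n = 2), and the mean of B was 3.64 times that of A. Both libraries of B were again above both of A.

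*Spry1* and *Dusp6* thus had nearly the same level in each library, although they lie on different chromosomes. The ratio of *Dusp6* to *Spry1*, looked at after these values were seen, was 1.05, 1.03, 1.11 and 1.11. *Spry2* did not share this profile: the ratio of *Spry2* to *Spry1* was 10.5 in A1 and 10.2 in A2 but 3.45 in B1 and 3.70 in B2.

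The ETS factor genes were highest in B1. *Etv5* is at 82194657 to 82252139 of chromosome 11 (plus strand). It had 15.3, 17.9, 45.3 and 21.5 FPKM, with a mean of 24.99 ± 11.9 FPKM (SD, n = 2). B2 was above both libraries of A but much nearer to them than to B1. *Etv4* is at 89685058 to 89700283 of chromosome 10 (minus strand). It had 16.3, 11.3, 35.5 and 11.6 FPKM, a mean of 18.7 ± 6.87 FPKM (SD, n = 2). Here B2 lay between the libraries of A, and B1 was 3.07 times B2, the largest distance between technical libraries among the 8 genes at 1 FPKM or more on average.

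**Figure D3:**
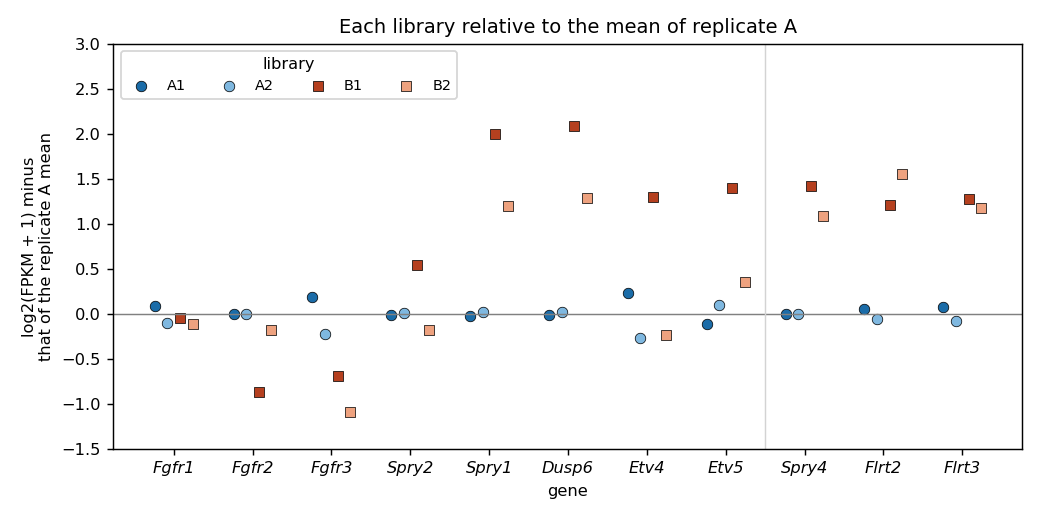
Level of each library as log2(FPKM + 1) minus that of the mean of replicate A, for the 8 members with a mean of at least 1 FPKM and, right of the grey line, 3 other feedback genes. Circles are libraries of A and squares are libraries of B. *Spry1* and *Dusp6* were above A in both libraries of B, whereas *Etv4* and *Spry2* were above A in B1 and not in B2.

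By mean FPKM, which is scaled to transcript length, the order was *Spry2*, *Fgfr1*, *Fgfr3*, *Fgfr2*, *Etv5*, *Etv4*, *Dusp6*, *Spry1*, *Fgf2* and *Fgf1*. Neighbours were compared by the difference of their means against the root of their summed squared SDs. *Fgfr1* was above *Fgfr3* by 37.5 FPKM against 18.5. *Spry1* was above *Fgf2* by 16.01 FPKM against 12.9, and *Fgf2* above *Fgf1* by 0.600 FPKM against 0.385. The other 6 neighbouring pairs did not differ beyond this spread. It treats the 2 genes as independent although both were measured in the same libraries. A pair that shifts together between replicates can therefore keep its order and still fall within it. *Fgfr3* was above *Fgfr2*, *Etv5* above *Etv4* and *Dusp6* above *Spry1* in both replicates. Of these, only *Dusp6* was the higher gene in all 4 libraries. The order within the 3 remaining pairs was not the same in both replicates. *Spry2* was below *Fgfr1* in A and above it in B, *Etv5* was below *Fgfr2* in A and above it in B, and *Dusp6* was below *Etv4* in A and above it in B.

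The biological replicates were compared by a rule of size, since 2 replicates of 1 condition allow no test. A gene was counted as different when its mean was at least 1 FPKM, the libraries of A and B did not overlap, and the difference of log2(FPKM + 1) between replicates was at least 1 in size. This scale understates the change of low genes. Among all 10481 genes at 1 FPKM or more on average, 6.20% met the rule, 4.78% with the higher level in B and 1.42% with the higher level in A. Of the 10 genes, 8 had such a mean, and *Spry1* and *Dusp6* met the rule. Both were higher in B, by 1.65 and 1.74 on the log2 scale, and both met it whichever of the 4 libraries was left out. None met it with the higher level in A.

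Libraries of A and B did not overlap for 5 of the 8 members (*Fgfr2*, *Fgfr3*, *Spry1*, *Dusp6* and *Etv5*), a share near the 60.1% among all 10481 genes. Below the limit of the rule, the difference of B minus A was 0.97 for *Etv5*, 0.73 for *Etv4*, 0.22 for *Spry2*, -0.08 for *Fgfr1*, -0.49 for *Fgfr2* and -0.87 for *Fgfr3*. The median difference was 0.47 over the 8 members, against -0.03 over all 10481 genes, and 0.34 over the 10 members with *Fgf1* and *Fgf2* included. Without B1 the median of the 10 genes was -0.05, so its sign rested on that library. *Etv5* met the rule without A2, without B2 or with a pseudocount of 0.1, *Etv4* without B2, and *Fgfr3* without A2 or without B1. Without B1 the difference was -0.24 for *Etv4* and -0.18 for *Spry2*, so that both turned direction, and 0.35 for *Etv5*. Without A1 it was 0.02 for *Fgfr1*. For *Fgfr2* the difference was -0.18 without B1 and -0.87 without B2.

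**Figure D4:**
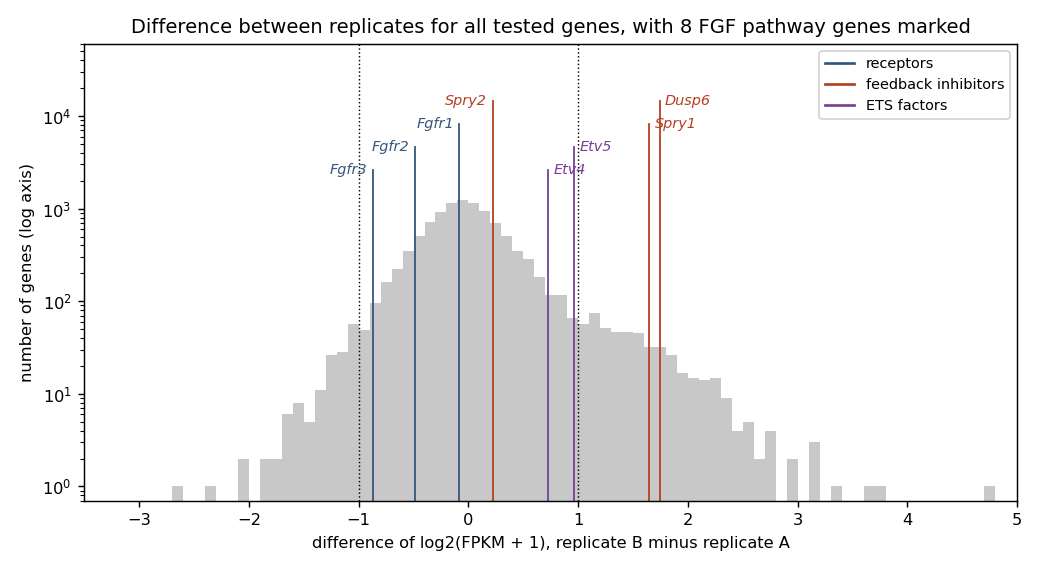
Number of genes (log axis) by the difference of log2(FPKM + 1) between replicate B and replicate A, for the 10481 genes at 1 FPKM or more on average. Coloured lines mark the 8 members among them, with line height for legibility only, and dotted lines mark a difference of 1 in size. *Spry1* and *Dusp6* lay at 1.65 and 1.74, *Etv5* just below the upper limit, and the receptors below 0.

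Technical libraries of one replicate were compared by their fold. B1 and B2 were at least 2-fold apart for 5.41% of the 10481 genes, and among the 8 members for *Etv4* at 3.07-fold and *Etv5* at 2.11-fold. Between A1 and A2 the share was 0.286% of all genes, and no member was among them. For *Etv4* and *Etv5* the fold between technical libraries of B was thus larger than the fold between the means of A and B.

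Markers of other cell types also differed between the libraries. The summed level of the mesenchymal markers in B was 4.21 times that in A, and 7 of the 8 met the rule. The 5 markers of oligodendrocyte precursors summed to 249, 274, 687 and 347 FPKM. *Pdgfra* had 9.50, 9.09, 59.5 and 59.4 FPKM and *Olig1* 172, 194.9, 523 and 237 FPKM, and both met the rule. *Olig2* had 66.8, 69.3, 103 and 49.7 FPKM, so that its libraries overlapped. *Cspg4* was at 0.367 to 0.956 FPKM with both libraries of B above both of A, and *Sox10* at 0.0731 to 0.373 FPKM with both of B below both of A. The 8 progenitor markers summed to 20555, 22649, 9859 and 10651 FPKM, a sum that *Fabp7* dominated with 16800, 18557, 6520 and 5485 FPKM. By mean, 4 of the 8 were higher in B (*Vim*, *Nes*, *Slc1a3* and *Prom1*) and 4 higher in A (*Fabp7*, *Sox2*, *Pax6* and *Hes1*), and only *Fabp7* met the rule. Of the 5 astrocyte markers *S100b* met the rule, with 365, 403, 203 and 149 FPKM and the higher level in A, and *Gfap* had 502, 460, 419 and 904 FPKM, with libraries that overlapped. The part of these cells in the levels of the FGF genes was not tested.

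Among all 10481 genes, the profiles most like those of *Dusp6* and *Spry1* were sought by the distance of their centred log2(FPKM + 1) values over the 4 libraries. Each of the 2 was the nearest gene to the other, at a distance of 0.0937. *Hic1* (0.138) and *Col14a1* (0.139) followed for *Dusp6*, and *Aldh1a1* (0.149) and *Mir3120* (0.162) for *Spry1*. All 4 were highest in B1, for example *Hic1* with 2.85, 2.93, 14.8 and 9.36 FPKM. The 4 libraries come from 2 biological replicates, and likeness over so few values is a description.

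The other genes of the pathway were taken from a list of 58 names, of which 55 were in the tables. A mean of at least 1 FPKM was found for 32 of the 55, and 3 of these 32 met the rule for a difference between replicates, against 6.20% of all genes. All 3 are in the feedback group and were higher in B. With no limit on the mean 4 genes of the list met it, the ligand *Fgf16* among them, whose mean of 0.9998 FPKM is just under the limit and whose log2 difference was 1.11. *Spry4*, another Sprouty gene, had 1.83, 1.84, 6.60 and 5.02 FPKM. *Flrt2* had 1.68, 1.47, 4.95 and 6.58 FPKM and *Flrt3*, whose product binds FGF receptors, 1.99, 1.69, 5.86 and 5.43 FPKM. Both libraries of B were above both of A for these genes, with log2 differences of 1.27, 1.39 and 1.23. The median difference was 0.15 over the 32 genes and 0.02 over all 55.

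In the feedback group, 5 other genes had a mean of at least 1 FPKM and did not meet the rule. *Etv1*, the third gene of the same ETS subfamily, was at 24.5 ± 0.999 FPKM (SD, n = 2), with 24.2, 23.4, 31.0 and 19.5 FPKM by library. The Spred genes, whose products inhibit RAS and RAF signalling, were at 2.86 ± 0.799 FPKM for *Spred1*, 4.10 ± 1.41 for *Spred2* and 5.43 ± 0.742 for *Spred3* (SD, n = 2). *Dusp7*, a cytoplasmic ERK phosphatase like *Dusp6*, had 15.0, 16.01, 13.4 and 31.9 FPKM, so that it was highest in B2, where *Dusp6* was not. *Spry3*, *Dusp4*, *Dusp5*, *Dusp9*, *Il17rd* and *Flrt1* had means below 1 FPKM.

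Of the 20 other FGF ligand genes listed, 5 had a mean of at least 1 FPKM. *Fgf11*, *Fgf12* and *Fgf13* belong to the subfamily that stays in the cell and does not act through the receptors, and were at 5.51 ± 0.101, 13.4 ± 1.14 and 2.48 ± 1.013 FPKM (SD, n = 2). The secreted ligand with the highest level was *Fgf22*, at 7.59 ± 0.396 FPKM (SD, n = 2), with 7.47, 8.27, 7.57 and 7.06 FPKM. *Fgf18* was at 1.004 ± 0.488 FPKM (SD, n = 2). In 13 of the 20 genes every library was below 1 FPKM, and *Fgf4* and *Fgf5* were listed at 0 in all 4.

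*Fgfrl1*, an FGF receptor-like protein without a kinase domain, had 29.2, 31.8, 25.3 and 18.7 FPKM, with both libraries of A above both of B. *Kl*, which encodes the co-receptor Klotho, was at 0.0124 to 0.0279 FPKM. All 18 signal transducers had a mean of at least 1 FPKM, and none met the rule. The highest mean among them was that of *Map2k2*, which encodes the kinase MEK2, at 140 ± 10.7 FPKM (SD, n = 2).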

How the data were processed

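RNA-seq libraries of polyA-selected RNA were made by the authors from 2 biological replicates, with 2 libraries each (read from the titles as technical), and the reads were aligned to rn6 with STAR. Tool versions are not given in the sources used here. The deposited FPKM (scaled to transcript length and library depth) were used as the authors gave them. The deposited TPM sum to 1000000 per library and served as an alternative. Coverage, deposited beside them, is reads per base and keeps the library depth. The tables have the layout of StringTie, which the submitters' processing notes name, while the methods name Rsubread and DESeq2 for FPKM. Start-seq samples were not analysed here.

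FPKM of rows with the same gene name were summed, technical libraries were averaged within a replicate, and mean and SD are over the 2 replicates (n = 2). Samples were grouped by their titles. With 1 condition no p-value was computed. Read numbers were not used here, so no counting interval is given. Differences used a pseudocount of 1 FPKM. The counting was tested on simulated libraries with 200 genes changed 4-fold, and the outcome is not given here. Promoter sequences are from RefSeq (GRCr8).

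The named genes are all members, the pathway receptors and feedback genes at 1 FPKM or more on average, the 5 other ligands with the highest means, the transducers with the highest and lowest mean, pathway genes that met the difference rule, genes overlapping a member, and the 3 nearest profiles to each of the 2 members with the largest difference. Receptor, co-receptor and feedback genes below 1 FPKM, *Nudt6*, *Plcg1*, the EGF receptors and ligands with a mean below 1 FPKM are named outside this rule. One gene that this rule names is not reported here. Members and lists were chosen with earlier results of these data known. Of the listed pathway names, *Klb*, *Braf* and *Cbl* were not analysed here. Alternatives were other FPKM limits, a pseudocount of 0.1, a log2 difference of 0.58, TPM, scaling of libraries by their median ratio, the highest row of a gene name in each library in place of the sum, and leaving out each library or replicate. Python 3.11.15, pandas 2.3.3, numpy 2.4.6 and matplotlib 3.10.9 were used.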

Additional observations from a re-analysis of the deposited data

Results flagged for a closer look

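Of 54 values examined over the 4 libraries, 4 had 1 library far from the other 3 (Dixon's ratio above 0.829). About 1 in 20 would be found by chance if the samples were independent, which technical pairs are not. The coverage per FPKM was 6.83 in B2 against 22.7 to 24.4 in the others. *Dusp7* had 31.9 FPKM in B2 and 13.4 to 16.01 FPKM elsewhere. *Spred3* had 3.93 FPKM in A2 and 5.79 to 6.12 FPKM elsewhere. The endothelial markers (*Pecam1*, *Cdh5*, *Kdr* and *Tek*) summed to 2.22 FPKM in B2 and to 0.620 to 0.710 FPKM elsewhere. None of the 10 members was among the 4.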

How the results depend on the processing

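Of 238 alternatives computed for 27 results, 214 stayed within 1 SD of the value or, for a count, within 1.5 times. Much of this was fixed beforehand, so that this number alone says little about stability. With 2 replicates, the mean without 1 of them always lies within 1 SD. Taking the highest row left every member unchanged, and levels in TPM were set against an SD in FPKM. For a log2 difference the SD was that between technical libraries, 1.14 for *Etv4*. The change of *Etv4* from 0.73 to -0.24 without B1 thus counted as within 1 SD. *Spry1* and *Dusp6* met the difference rule under each alternative computed for it. All genes that met it numbered 650, against 1725 at a log2 difference of 0.58 and 331 when means under 10 FPKM were left out. The number of members that met it was 4 at a log2 difference of 0.58, where 16.5% of all genes did, and 2 to 4 with 1 library left out. The number of other pathway genes that met it was 0 at a mean of at least 10 FPKM, a limit that *Spry4*, *Flrt2* and *Flrt3* do not reach, 5 at a log2 difference of 0.58, 5 with TPM, and 3 to 5 with 1 library left out. Pathway genes detected numbered 53 with any FPKM above 0 and 21 at 10 FPKM, against 32. The median difference was 0.58 for the members with a pseudocount of 0.1, where *Etv5* also met the rule, and -0.0495 to 0.44 with 1 library left out, against 0.34, and for the pathway 0.11 with a pseudocount of 0.1 and 0.00 to 0.10 with 1 library left out, against 0.02. The sign changed in 3 of 80 alternatives for single members: *Fgfr1* without A1, and *Spry2* and *Etv4* without B1. The cause was not tested. No paired analysis was possible because there was only 1 condition. The lower depth of B2 limits *Fgf1*, whose coverage there was 0.474.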

Other observations

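The medium also held EGF, and the genes of its receptor family were looked at for that reason. *Egfr* had, in the same order of libraries, 15.2, 14.4, 7.89 and 6.95 FPKM, a mean of 11.1 ± 5.22 FPKM (SD, n = 2), and both libraries of A were above both of B. *Erbb2* had 7.94, 6.28, 9.12 and 10.01 FPKM. Neither met the rule for a difference between the replicates. *Erbb3* had 1.014, 0.504, 0.208 and 0.126 FPKM and *Erbb4* 0.410, 0.407, 0.214 and 0.268 FPKM, so that both were higher in A without overlap but had means below the 1 FPKM that the rule asks for.

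*Plcg1*, which encodes a phospholipase that FGF receptors activate, had 164, 91.4, 168 and 76.3 FPKM. The technical libraries of each replicate differed by more than the replicate means did, and A1 was close to B1. Among the ligand genes with a mean below 1 FPKM, both libraries of B were above both of A for *Fgf7*, with 0.0913, 0.189, 0.797 and 0.610 FPKM, for *Fgf14*, with 0.294, 0.337, 0.343 and 0.706 FPKM, and for *Fgf16*, with 0.365, 0.173, 1.66 and 1.80 FPKM. Both libraries of A were above both of B for *Fgf9*, with 0.375, 0.440, 0.189 and 0.329 FPKM, and for *Fgf17*, with 0.735, 0.777, 0.477 and 0.234 FPKM. The same held for *Fgf21*, which had 1.81, 1.28 and 0.718 FPKM and was listed at 0 in B2. *Plcg1* and these ligand genes were chosen after their values were seen.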
